A study of Mus musculus with 8 samples.

Results

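The cells described here were the CX-5461-treated mouse embryonic stem (mES) cells with the highest levels of 5 p53 target genes: 402 cells, the highest decile of 4029 kept cells, out of 4922 barcodes of the treated table and 8760 of the series. A cell was kept with at least 5000 UMIs (unique molecular identifiers, each standing for 1 captured transcript), at most 0.1 of them on mitochondrially encoded genes, and less than 0.1% on Col1a1, Col1a2 and Col3a1 together. Its score was the summed UMIs of Cdkn1a, Mdm2, Ccng1, Phlda3 and Trp53inp1 divided by its total UMIs. The 402 kept cells with the lowest score, from the same table, served for comparison.

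Droplet single-cell RNA-seq was carried out on untreated mES cells and on cells treated with CX-5461, an inhibitor of RNA polymerase I (Pol I), to see how gene expression differed cell by cell. Both were wild-type E14 cells, an established laboratory line from the inner cell mass of a mouse embryo, grown for 2 days in LIF/2i medium on a feeder layer of fibroblasts from mouse embryos. The labels give neither dose nor duration of the CX-5461 treatment for these cells. The labels list 4 samples a condition, but all barcodes of a condition stand in 1 table without their sample of origin, so each condition was 1 library and no test between conditions or between sets of cells was possible.

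The transcription factor p53 is kept low in unstressed cells because Mdm2, itself a p53 target, marks it for degradation. When ribosome production is disturbed, free ribosomal proteins Rpl5 and Rpl11 can bind Mdm2, p53 accumulates, and it switches on genes for cell cycle arrest, cell death, repair and its own feedback. In mES cells p53 is also known for repressing pluripotency genes such as Nanog. It binds DNA as a tetramer at a response element made of a pair of half-sites.

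The matches near an annotated start of Cdkn1a, Ccng1 and Ckap2 are printed to show what a p53 element looks like in targets of this pathway. RefSeq promoter windows of build GRCm38.p6, each 250 bases before to 50 after a transcription start, were searched on both strands for 2 adjacent p53 half-sites, 20 bases in all, with the C and G of each core intact and at most 2 mismatches elsewhere. The half-site reads the same on both strands. Capitals mark the element in the 70 bases shown, 5′ to 3′ on the strand of the gene.
Cdkn1a: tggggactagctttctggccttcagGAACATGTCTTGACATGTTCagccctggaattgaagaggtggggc
Ccng1: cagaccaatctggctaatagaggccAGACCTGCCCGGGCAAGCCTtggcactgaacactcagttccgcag
Ckap2: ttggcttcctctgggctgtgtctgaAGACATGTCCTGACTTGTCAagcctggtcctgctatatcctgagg
With 32851 windows for 27025 symbols, a gene can have more than 1 annotated start, and distances are from the start of the window that held the match. The Cdkn1a stretch is chr17:29090903-29090972 on the plus strand, and its element ended 31 bases before that start. The Ccng1 stretch is chr11:40755437-40755506 on the minus strand, with the element 175 bases before the start. Ckap2, a p53 target outside the rule that was picked for display after its values were seen, has its stretch at chr8:22185978-22186047 on the minus strand, with the element 183 bases before the start. The elements of Cdkn1a and Ccng1 had 1 mismatch each and that of Ckap2 had 2.

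Such an element stood in the windows of 106 of 27025 gene symbols (0.392%). Of the 4 rule genes with a window, Cdkn1a and Ccng1 had one, while Mdm2 and Phlda3 did not. Of 52 other p53 targets with a window, 5 had one (9.62%), namely Ckap2, Gtse1, Rps27l, Trp73 and Zfp365, which are named for this match alone. Among genes with a window that were compared between the deciles, 6 of 531 at least 1.5-fold higher in the members had one (1.13%). So did 1 of 172 at least 1.5-fold lower (0.581%) and 14 of 3158 between (0.443%), and the small counts leave these shares uncertain. These are matches of letters in a short window and not measured binding sites.

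The cutoff fell within a continuous spread of scores. The last cell inside stood at 2121 CPM (counts per 1e+06, the UMIs of the genes scaled to that total) and the first outside at 2120 CPM, with 23 of 10844 and 31 of 14623 UMIs on the rule genes. The median score was 2389 CPM in the members, 1343 CPM in all kept treated cells and 658 CPM in the lowest decile, whose highest score was 788 CPM. In kept control cells the median was 328 CPM. At or above the members' cutoff stood 37 of 2513 kept control cells (1.47%, exact 95% interval 1.04 to 2.02%). Intervals throughout are exact 95% intervals of the counts and cover counting error only.

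**Figure D1:**
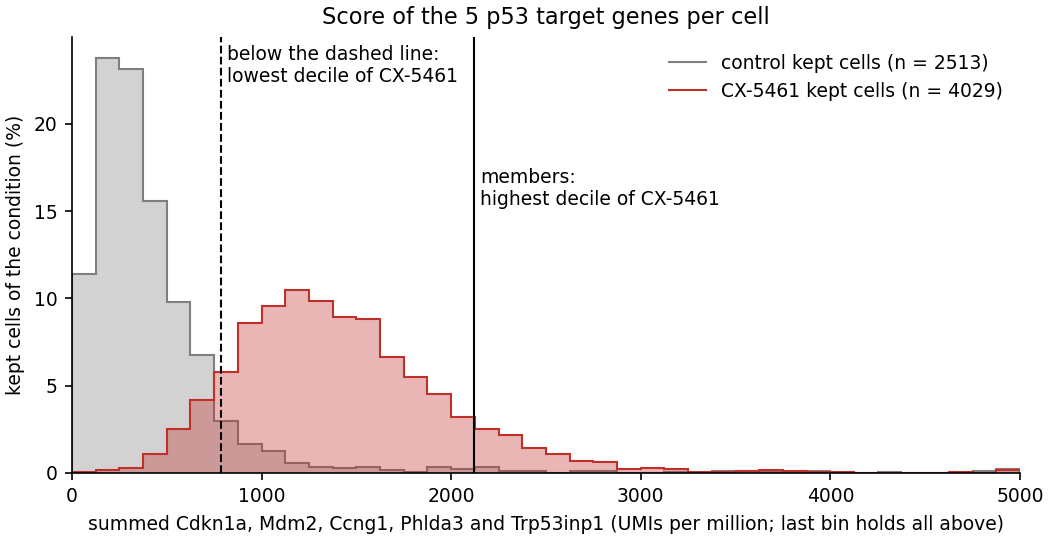
Share of kept cells (vertical axis, percent of the condition) by the summed level of the 5 rule genes (horizontal axis, CPM in bins) for 4029 CX-5461 cells and 2513 control cells. The solid line marks the cutoff of the members at 2121 and the dashed line the upper end of the lowest decile at 788, which 91.5% of control cells did not exceed.

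A member held a median of 31.5 UMIs of the rule genes, against 10 in the lowest decile, so each single score carried a large counting error. Cdkn1a, which encodes the cyclin-dependent kinase inhibitor p21, gave 42.0% of the members' rule UMIs. Per member its count was 0 at the lowest, 12.5 at the median and 128 at the highest. The highest count was in a fibroblast-marker cell, a kind described below. The 10 such members held 601 of the members' 5648 Cdkn1a UMIs (10.6%), and such cells held 0 of 1388 in the lowest decile. Phlda3, which restrains Akt signalling, gave 22.0% of the rule UMIs with a median of 7, and Ccng1, cyclin G1, gave 19.6% with a median of 6. Mdm2 gave 11.2% with a median of 3, and Trp53inp1, a p53-induced stress protein, gave 5.18% with a median of 1. All 5 rule genes were detected in at least 77.4% of members. These values chose the members and are a description.

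Each rule gene was next read in cells chosen by the other 4, so that its own UMIs had no part in the choice. Mdm2 was 215 CPM in the highest and 82.5 CPM in the lowest decile chosen without it, a ratio of 2.61 (2.35 to 2.90). The ratio was 2.03 (1.77 to 2.33) for Trp53inp1, 1.84 (1.73 to 1.97) for Phlda3, 1.80 (1.71 to 1.89) for Cdkn1a and 1.44 (1.35 to 1.54) for Ccng1. All 5 intervals lay above 1, and the ratios were smaller than those of 2.76 to 5.54 in the deciles that the genes themselves helped to choose. Between 250 (without Cdkn1a) and 359 (without Trp53inp1) of the 402 members were chosen again. Ratios of the remaining genes come from the same cells and the same library and are given without a test. All 5 rule gene ratios were lower when fibroblast-marker cells were left out before the deciles were chosen. Cdkn1a changed most, to 1.63 (1.55 to 1.71). Mdm2 was then at 2.56, Trp53inp1 at 2.01, Phlda3 at 1.80 and Ccng1 at 1.41, and all 5 intervals still lay above 1.

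The label of stem cells was checked against Pou5f1, Sox2, Nanog, Zfp42 and Dppa5a. Pou5f1, which encodes Oct4, was detected in 387 of 402 members (96.3%) and Dppa5a in 400 of 402 (99.5%). Zfp42 was detected in 84.3% of members, Sox2 in 70.1% and Nanog in 68.4%, against 95.8, 80.8 and 91.8% of the lowest decile. Both transcripts also reached barcodes of feeder fibroblasts, where Pou5f1 was detected in 27.3% and Dppa5a in 84.5% of 161 barcodes at a median depth of 23732 UMIs, against 12653.5 UMIs in the members. The level set them apart, with Pou5f1 at 568 CPM in the members and 20.9 CPM in those barcodes. Of the 15 members without a Pou5f1 UMI, 6 were not among the fibroblast-marker cells described next. Among members chosen without such cells, the lowest summed level of the 5 stem cell markers was 0 CPM.

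Feeder fibroblasts had not been removed entirely by the collagen limit. In 10 of the 402 members, over 0.3% of UMIs fell on 16 fibroblast markers, a limit set after the data were seen. Of kept treated cells, 16 of 4029 exceeded it, and 5 of them stood in the lowest decile. In these 10 members the marker share ran from 0.606 to 1.18%, against at most 0.273% in the other 392, and 9 of the 10 had no Pou5f1 UMI. Their scores reached 9376 CPM, whereas no member chosen without such cells exceeded 4104 CPM. The summed fibroblast markers stood at 790.3 CPM in the members and 809 CPM in the lowest decile, and at 541 and 622 CPM once such cells were left out before the deciles were chosen. Values without them are given where they changed a count of genes or a call. Markers of other cell types a culture could hold were sparse. The 10 macrophage markers summed to 31.7 CPM in the members and 22.7 CPM in the lowest decile, of which Cd68, a lysosomal protein, gave 162 of 165 UMIs in the members. The defining genes Ptprc, Adgre1, Csf1r and Lyz2 had no UMI there, and a count of 0 leaves at most 0.746% of members with a UMI of each, which does not limit cells that express them at a low level. The 12 primitive endoderm markers were higher in the members, at 13.8 against 5.84 CPM from 72 and 37 UMIs, a log2 ratio of 1.24 (0.65 to 1.86), and of 1.12 (0.53 to 1.73) without fibroblast-marker cells. None of the 12 reached 200 UMIs, Sox17, Sox7 and Ttr were at 0 in both deciles, and their part in the results was not tested.

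Sequencing depth differed between the sets. The median was 12653.5 UMIs and 3370 detected genes in the members, 15510.5 UMIs and 3703 genes in the lowest decile, and 14674 UMIs in all kept treated cells. The mitochondrial share had a median of 3.96% of UMIs in members and lowest decile alike, and the ribosomal protein share 24.1 and 24.3%. No doublet caller was run.

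Of 5241 genes with at least 200 UMIs over both deciles, rule genes left out, 656 were at least 1.5-fold higher in the members (12.5%) and 255 at least 1.5-fold lower (4.87%). The median log2 ratio of all 5241 genes was 0.020. The shares of 12.5 and 4.87% are the background for each count of a list below. Without fibroblast-marker cells, 626 of 5217 genes were higher (12%) and 261 lower (5%). With deciles chosen within bins of depth, 540 of 5393 genes were higher and 149 lower, and with the score taken from cells thinned to 5000 UMIs, 492 of 5465 were higher and 146 lower.

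The p53 targets outside the rule were higher in the members in all 3 roles listed. Of 65 such genes, chosen from textbook knowledge with earlier results of these data known, 37 had enough UMIs to be compared. At least 1.5-fold higher were 29 of the 37, and none was that much lower. Their median log2 ratio was 0.87. Without fibroblast-marker cells 28 of 36 were higher, with a median of 0.83. Summed over all 65 genes, a member held 8134 CPM at the median, with a lowest value of 4158 and a highest of 15112 CPM. A cell of the lowest decile held 5817 CPM at the median, between 1564 and 11981 CPM. The ranges overlapped, but 380 of 402 members (94.5%, 91.8 to 96.5%) stood above the median of the lowest decile.

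Among 11 targets of cell cycle arrest and feedback, 9 were at least 1.5-fold higher and the median log2 ratio was 0.89, and without fibroblast-marker cells 10 were. Gdf15, a secreted cytokine of the TGF-beta family, was 38.6 CPM in the members and 12.9 CPM in the lowest decile, a ratio of 2.98 (2.30 to 3.91). Btg2, an antiproliferative cofactor, was 300.0 against 105 CPM, a ratio of 2.85 (2.60 to 3.12), and was detected in 361 members and 299 cells of the lowest decile. Plk2, a polo-like kinase, had a ratio of 2.51 (2.14 to 2.96).

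Of 12 apoptosis targets, 9 were at least 1.5-fold higher, with a median log2 ratio of 0.79. Without fibroblast-marker cells 7 of 11 were, with a median of 0.70. The death receptor Fas showed the largest ratio of the list, 4.93 (3.48 to 7.12), from 166 UMIs in 101 members against 41 UMIs in 35 cells. Without fibroblast-marker cells its log2 ratio was 2.16, but it had under 200 UMIs and was not among the 11 compared. Bbc3, which encodes the BH3-only protein Puma, had a ratio of 2.21 (1.76 to 2.79) and Perp, a membrane protein of p53-dependent death, 2.08 (1.85 to 2.33). Bax, the pore-forming effector, was detected in every cell of both deciles and differed little, with 1079 against 892 CPM and a ratio of 1.21 (1.17 to 1.26).

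In repair and metabolism, 11 of 14 targets were at least 1.5-fold higher, with a median log2 ratio of 0.94. Tap1, a subunit of the peptide transporter for antigen presentation, was 48.6 against 10.7 CPM, a ratio of 4.53 (3.45 to 6.01). Ephx1, an epoxide hydrolase, had a ratio of 3.20 (2.40 to 4.30), and Ddit4l, an inhibitor of mTOR signalling, 2.70 (2.42 to 3.00). Tigar, which lowers glycolytic flux, was the only one of the 14 with an interval below 1, at 0.79 (0.67 to 0.94). Epha2, a receptor tyrosine kinase, was at 0.86 (0.66 to 1.11).

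**Figure D2:**
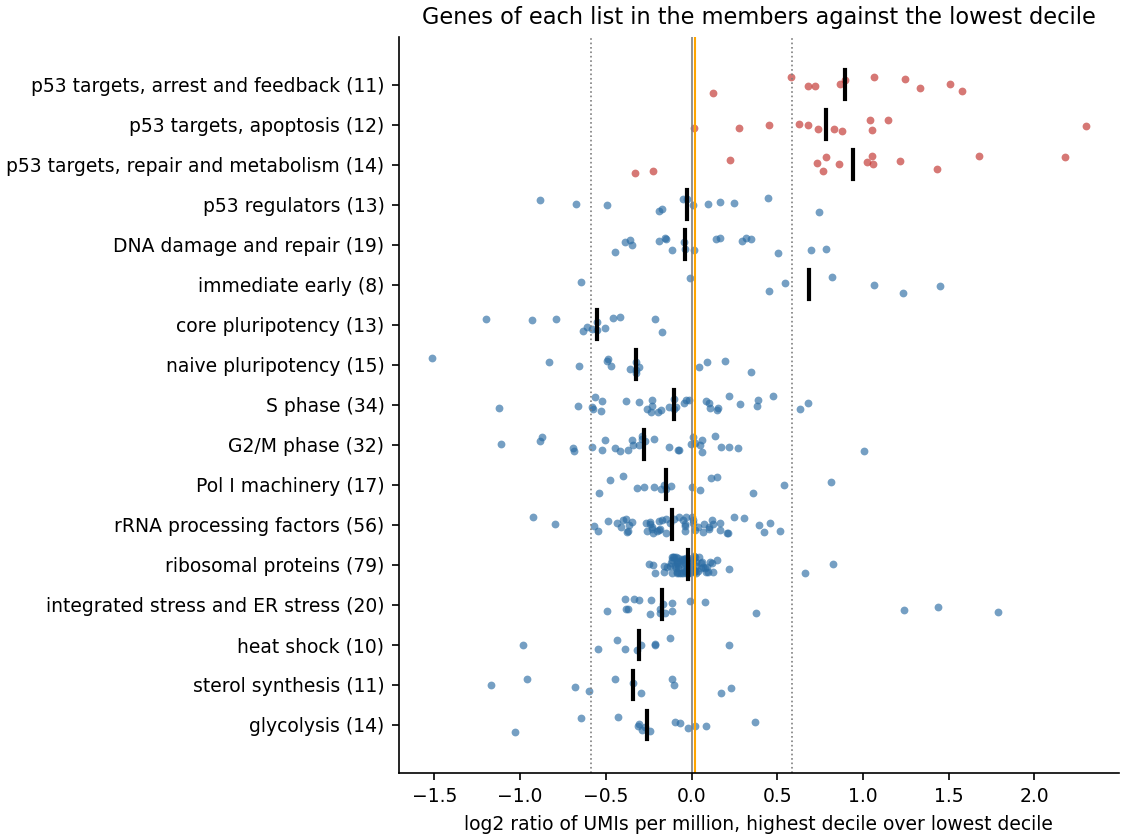
Log2 ratio of CPM in the members over the lowest decile (horizontal axis) for each compared gene of 17 lists, with the number compared in brackets; black bars mark list medians, the orange line the median of all compared genes (0.020) and dotted lines a 1.5-fold difference. The 3 lists of p53 targets stand to the right with medians of 0.79 to 0.94, and core pluripotency stands to the left at -0.55.

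Transcripts of p53 itself were not higher in the members. Trp53 was 267 CPM in the members and 304 CPM in the lowest decile, a ratio of 0.88 (0.82 to 0.94). Of 13 regulators of p53, 1 was at least 1.5-fold higher and 2 that much lower, beside 12.5 and 4.87% of all compared genes. Their median log2 ratio was -0.024. The checkpoint kinase gene Chek2 had a ratio of 1.68 (1.34 to 2.10), and Mdm4, the partner of Mdm2 in holding p53 down, 1.36 (1.17 to 1.58). Trim28, a corepressor that also binds Mdm2, was lower with a ratio of 0.54 (0.48 to 0.60), as was the mitotic kinase gene Aurka with 0.63 (0.53 to 0.74). Of 19 genes of DNA damage signalling and repair, 2 were at least 1.5-fold higher, beside the same 12.5%. They were Rad50 with a ratio of 1.72 (1.47 to 2.01) and Xrcc1 with 1.62 (1.44 to 1.84), and the list's median was -0.038.

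The 12 genes with the highest ratios were Ccl2, Itgb2, Rgs14, Krt15, Tnfrsf18, Nectin4, Robo3, Serpinf1, Ahnak2, Pgf, Recql4 and Dpep3. None stood on the lists of p53 targets. Of these, the chemokine Ccl2 came from feeder cells, with 272 of its 279 UMIs in the 10 fibroblast-marker members. Without such cells the other 11 had ratios from 2.50 (Dpep3) to 4.25 (Itgb2) on the log2 scale. None of the 7 that have a promoter window held the p53 element there, which says only that these letters are not in that window.

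Itgb2, the beta chain of leukocyte integrins, had 229 UMIs in 119 members and 14 UMIs in 12 cells of the lowest decile, a ratio of 19.9 (11.6 to 37.0). Rgs14, a regulator of G protein signalling, had 331 UMIs in 119 members and 26 UMIs in 19 cells, a ratio of 15.5 (10.4 to 24.1). Krt15, a keratin of basal epithelia on chromosome 11, was 74.3 CPM in the members and 6.31 CPM in the lowest decile, a ratio of 11.8 (8.49 to 16.7). A Krt15 UMI was found in 147 of 402 members (36.6%, 31.8 to 41.5%) and in 28 of 402 cells of the lowest decile (6.97%, 4.68 to 9.91%). Thinned to 5000 UMIs a cell, the shares were 21.4 and 2.99%. In feeder fibroblasts, as a type that should lack the gene, 1 of 161 barcodes had a Krt15 UMI (0.621%) at a greater depth.

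The cell surface genes Tnfrsf18, a receptor of the TNF family, Nectin4, an adhesion molecule, and Robo3, an axon guidance receptor, had ratios of 11.6 (8.42 to 16.5), 9.11 (6.62 to 12.8) and 8.76 (6.77 to 11.5). Dpep3, a membrane dipeptidase, was the most often detected of the 12 apart from Ahnak2, with 841 UMIs in 227 members against 185 UMIs in 112 cells and a ratio of 5.53 (4.71 to 6.52). The helicase gene Recql4 had a ratio of 5.76 (4.35 to 7.74) and Pgf, placental growth factor, 6.46 (4.74 to 8.95). Serpinf1, a secreted serpin, stood at 7.83 (5.31 to 11.9) and Ahnak2, a large scaffold protein, at 6.54 (5.23 to 8.26). No single member held more than 19 UMIs of any of these 11 genes. All 11 were picked as the highest ratios, and their intervals do not allow for that choice.

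Most of the 11 genes were close to absent from the control library, the exceptions being Serpinf1, Ahnak2 and Recql4 at 2.56 to 3.75 CPM. In 2513 kept control cells Krt15 had no UMI, and a count of 0 allows at most 0.119% of cells with one. Itgb2, Rgs14, Tnfrsf18, Robo3 and Dpep3 had 4 to 13 UMIs there, or 0.0921 to 0.299 CPM. The lowest decile of treated cells lay between control and members for all 11, from 2.21 CPM for Itgb2 to 29.2 CPM for Dpep3. Krt5 and Rsph6a, known from the whole treated library as raised genes, were also higher in the members, with ratios of 2.95 (2.27 to 3.85) and 3.30 (2.54 to 4.32).

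**Figure D3:**
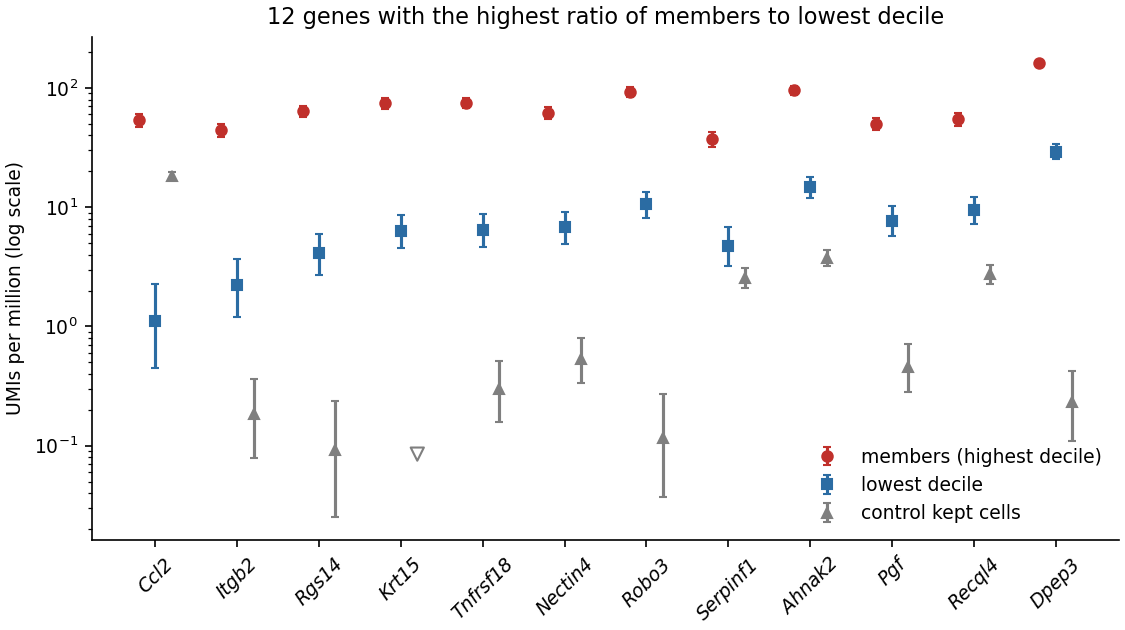
Level in CPM (log scale) of the 12 genes with the highest ratio in the members (circles), the lowest decile (squares) and kept control cells (triangles), with exact 95% intervals of the counts; the open triangle is the upper limit for Krt15, at 0 in control cells. The 12 genes were picked for standing higher in the members than in the lowest decile. For 11 of the 12 the control cells stand below the lowest decile, and for Ccl2 the control cells (18.3) stand above it (1.10).

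Core pluripotency genes were lower in the members. All 13 compared genes had a ratio below 1, and 5 were at least 1.5-fold lower, with a median log2 ratio of -0.55 against 0.020 for all genes. Pou5f1 was 568 CPM in the members and 833 CPM in the lowest decile, a ratio of 0.68 (0.65 to 0.71), with a median of 6 and 12 UMIs a cell. Nanog was 166 against 248 CPM, a ratio of 0.67 (0.62 to 0.73), and was detected in 275 members and 369 cells of the lowest decile. Sall4, a zinc finger factor, had the lowest ratio of the list at 0.44 (0.34 to 0.55), followed by the nuclear receptor gene Nr0b1 at 0.52 (0.44 to 0.62) and the Nodal coreceptor gene Tdgf1 at 0.58 (0.53 to 0.62). Sox2 differed least, with 119 against 134 CPM and a ratio of 0.89 (0.80 to 0.99).

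Cell by cell, the sum of the core pluripotency genes was 6067 CPM at the median of the members, with a middle range from the first to the third quartile of 4406 to 8022 CPM. In the lowest decile the median was 8811 CPM and the middle range 7581 to 10181 CPM. Of the members, 72 of 402 (17.9%, 14.3 to 22.0%) exceeded the median of the lowest decile. Without fibroblast-marker cells the genes' median log2 ratio was -0.52, and all 13 ratios were again below 1.

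Naive pluripotency genes were less uniform. Of 15 compared, 3 were at least 1.5-fold lower and none that much higher, with a median log2 ratio of -0.33. Tcl1, a coactivator of Akt, was 19.2 against 54.9 CPM, a ratio of 0.35 (0.28 to 0.44), the osteopontin gene Spp1 stood at 0.56 (0.53 to 0.59) and Klf2 at 0.63 (0.53 to 0.75). In contrast, Klf4 was higher, at 1.27 (1.15 to 1.41), while the intervals of Klf5 and Socs3 included 1. Of 28 formative and germ-layer genes only 3 had enough UMIs, and all 3 had ratios below 1, from 0.66 for the Nodal antagonist Lefty2 to 0.79 for the DNA methyltransferase Dnmt3b. Lefty2 turned direction with the score without Mdm2, to 0.013 on the log2 scale, and was under 1.5-fold lower without fibroblast-marker cells.

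The members also differed among themselves in core pluripotency level. The 392 members without fibroblast-marker cells were ordered by their summed core pluripotency level and cut into 4 quartile groups of 98 cells. The 11 genes highest in the members summed to 1599 CPM in the group with the lowest pluripotency level, then to 761 and 592 CPM, and to 422 CPM in the group with the highest, a ratio of the end groups of 3.79 (3.45 to 4.17). The 11 genes were picked from these same members, so their order within them is a description. The rule genes, whose level the choice of members fixes above the cutoff, went from 2608 to 2381 CPM, which is also given as a description only.

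Krt15 differed most over the groups, at 182, 76.0, 35.3 and 22.6 CPM, with a ratio of the ends of 8.05 (5.48 to 12.2). Robo3 followed with 6.05 (4.38 to 8.51) and Dpep3 with 4.76 (3.78 to 6.03), while Nectin4 was the flattest of the 11 with 1.5 (1.11 to 2.05). The p53 targets outside the rule had a ratio of 1.40 (1.36 to 1.43). Naive pluripotency genes followed the core genes, with 0.58 (0.54 to 0.62). Genes of the G2/M phase had 1.18 (1.13 to 1.22), higher in the group lowest in pluripotency, although they were lower in the members than in the lowest decile. Median depth was 11808 UMIs in the first and 12977 UMIs in the fourth group, and its part in these ratios was not tested.

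The same order of the 11 genes appeared in cells that had no part in choosing them. Among the 3224 kept cells outside both deciles and without fibroblast-marker cells, quartile groups of 806 cells held 465, 214, 155 and 121 CPM of the 11 genes, a ratio of the ends of 3.85 (3.64 to 4.08). These groups also differed in depth and score. Median depth was 13383.5 UMIs in the group lowest in pluripotency and 15987 UMIs in the highest. The median score was 1469 and 1256 CPM, and the rule genes had a ratio of the ends of 1.12, with an interval above 1. Genes of the G2/M phase went the other way here, with a ratio of the ends of 0.91 (0.90 to 0.92) against 1.18 in the members. The p53 targets outside the rule had 1.22 and naive pluripotency genes 0.85, each on the same side of 1 as in the members. The part of depth and score in these ratios was not tested. These cells come from the same library and are no replicate of it.

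**Figure D4:**
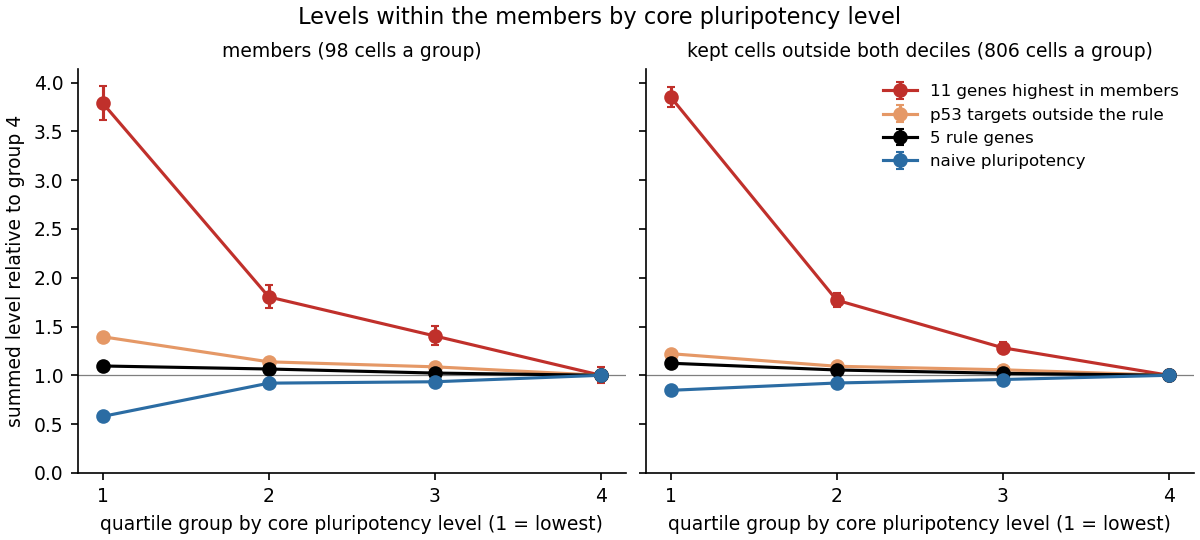
Summed level relative to the fourth group (vertical axis) over quartile groups of cells ordered by core pluripotency level (horizontal axis, 1 lowest), for 392 members (left) and 3224 kept cells outside both deciles (right), with exact 95% intervals of the counts. The 11 genes highest in the members go from 3.79 to 1 in members and from 3.85 to 1 in the other cells. The 5 rule genes, which chose the cells, are drawn as a description, as are the 11 genes in the left panel, which were picked from those members.

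Levels were next read over all 10 deciles of kept cells. The p53 targets of all 3 roles were higher in each decile than in the one before it, in 9 of 9 steps. Between the second and the ninth decile, which were no part of the comparison of the ends, the log2 ratio was 0.50 for arrest, 0.26 for apoptosis and 0.25 for repair and metabolism. Core pluripotency genes went down from 8769 CPM in the second to 7544 CPM in the ninth decile and then to 6335 CPM in the members. Tcl1 was lower in each successive decile from the second to the ninth, at 55.9 and 31.3 CPM at the ends of this range. Single genes did not all follow the sum, since between the same deciles the log2 ratio was -0.039 for Nanog and 0.0085 for Sox2, and naive pluripotency genes were higher in 2 of 7 steps. Cells with a Krt15 UMI went from 6.97% in the lowest decile to 25.1% in the ninth and 36.6% in the members. Neighbouring deciles often differed by less than their intervals. Median depth was 15868.5 UMIs in the second decile, 13582 UMIs in the ninth and 12653.5 UMIs in the members, and its part in these levels was not tested.

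**Figure D5:**
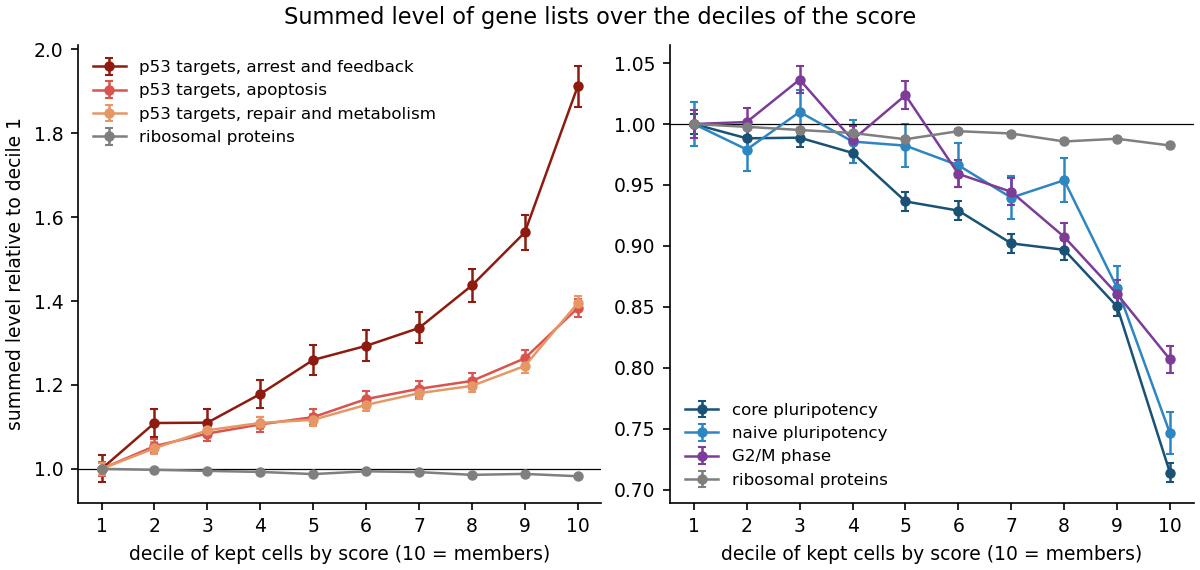
Summed level of gene lists relative to the lowest decile (vertical axes, which do not start at 0) over the deciles of kept CX-5461 cells by score (horizontal axis, 10 being the members), with exact 95% intervals of the counts. The left panel shows p53 targets going up in every step and the right panel core pluripotency, naive pluripotency and G2/M genes going down mainly above the fifth decile, while ribosomal proteins stay within 2% of their first value.

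Cell cycle genes differed less than pluripotency genes. Of 34 S phase genes, 2 were at least 1.5-fold higher and 2 that much lower, with a median log2 ratio of -0.10. The cyclin gene Ccne1 had a ratio of 0.46 (0.35 to 0.59) and the replication helicase gene Mcm4 0.63 (0.52 to 0.76), while the clamp loader gene Rfc4 had 1.60 (1.41 to 1.81). Of 32 G2/M genes, 5 were at least 1.5-fold lower and 1 higher, with a median log2 ratio of -0.28. The mitotic kinase gene Plk1 stood at 0.46 (0.37 to 0.58), Nusap1, which bundles spindle microtubules, at 0.54 (0.45 to 0.64), and Cenpa, the histone of centromeres, at 0.55 (0.50 to 0.60). The spindle checkpoint gene Bub1b was the exception, at 2.01 (1.74 to 2.32). Among 8 G1 cyclins and inhibitors, Ccnd3 was lower, at 0.58 (0.52 to 0.64), and the ratio of 4.32 for Ccnd2 rested on fibroblast-marker cells, which held 131 of its 167 UMIs in the members. Without such cells 6 of these genes were compared, none at least 1.5-fold higher and 2 that much lower.

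Transcripts for making ribosomes, the process that CX-5461 acts on, were slightly lower in the members when summed. The summed log2 ratio was -0.14 (-0.18 to -0.11) for the Pol I machinery and -0.17 (-0.19 to -0.15) for rRNA processing factors. The median log2 ratio of 17 genes of the Pol I machinery was -0.15. Of these, 1 was at least 1.5-fold higher and none lower, beside 12.5 and 4.87% of all compared genes. That gene was Polr1a, the largest Pol I subunit, with 83.4 against 47.5 CPM and a ratio of 1.75 (1.51 to 2.04). Ubtf, the Pol I activator that binds ribosomal DNA, was at 0.76 (0.63 to 0.91). Of 56 rRNA processing factors 2 were at least 1.5-fold lower, the nucleolar chaperone gene Nolc1 at 0.53 (0.47 to 0.59) and the exosome subunit gene Exosc5 at 0.58 (0.52 to 0.64), with a median of -0.11. The 79 ribosomal protein genes summed to 238302 CPM in the members and 242572 CPM in the lowest decile, a log2 ratio of -0.026. Rpl29 and Rps2 passed 1.5-fold upwards, but fibroblast-marker cells held 489 of 962 and 790 of 1444 of their UMIs in the members, and without such cells their log2 ratios were -0.037 and 0.28.

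The 12 genes with the lowest ratios were B020031M17Rik, Gm8994, Gm21818, Gm21761, Gm20767, Gm8332, Zscan4-ps3, Gm5662, Gm47808, Gm8300, Gm48799 and Gm48271, of which Gm8994, Gm21761, Gm5662 and Gm8300 were on the list of genes of 2-cell-like (2C) cells and the other 8 were on no list. Cells in the 2C state resemble the blastomeres of the embryo at that stage and arise as a small part of any mES culture. The summed level of 39 2C genes was 83.4 CPM in the members and 825 CPM in the lowest decile. This came from few cells, since 12 cells of the lowest decile with at least 20 such UMIs held 5056 of its 5231 UMIs, and 1 of them held 1336. Many of these genes are near-identical copies, between which reads may have been split.

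Counted as cells with at least 5 or at least 20 such UMIs, the deciles had overlapping intervals. At least 20 UMIs of 2C genes were found in 4 members (0.995%, 0.272 to 2.53%) and in 12 cells of the lowest decile (2.99%, 1.55 to 5.16%). At least 5 UMIs of 2C genes were found in 9 of 402 members (2.24%, 1.03 to 4.21%) and in 18 of 402 cells of the lowest decile (4.48%, 2.67 to 6.98%), with overlapping intervals and 1.49 to 3.72% in the 8 deciles between. At least 1 UMI was found more often in the members, in 129 against 86 cells, and Zfp750, singled out after its values were seen, gave 94 of the 434 UMIs there against 38 of 5231. Without Zfp750 the counts were 73 (18.2%) and 55 (13.7%), with overlapping intervals. Once all cells with at least 5 such UMIs were left out, none of the 12 genes reached 200 UMIs.

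Of 8 immediate early genes, 4 were at least 1.5-fold higher and none of the others but Mycn, at 0.64 (0.50 to 0.81), that much lower, with a median log2 ratio of 0.68. Without fibroblast-marker cells the call for Mycn was lost, at -0.56 on the log2 scale. Jun had a ratio of 2.73 (2.17 to 3.45), Klf6 2.35 (1.97 to 2.81) and Fos 2.09 (1.88 to 2.33), all of them transcription factors induced within minutes by many stimuli. In the list of integrated and endoplasmic reticulum stress, 3 of 20 genes were at least 1.5-fold higher, beside 12.5% of all compared genes. They were Ddit3 at 3.45 (2.61 to 4.62), Atf3 at 2.71 (2.02 to 3.67) and Trib3 at 2.36 (1.87 to 2.99), but the list's median was -0.17. Heat shock genes had a median of -0.31 over 10 genes and sterol synthesis genes -0.34 over 11, of which 4 were at least 1.5-fold lower, among them Hmgcs1, an early enzyme of the pathway, at 0.44 (0.35 to 0.57). Without fibroblast-marker cells 3 of 10 sterol genes were that much lower. Glycolysis genes stood at -0.26 over 14, with the glucose transporter gene Slc2a3 lowest at 0.49 (0.44 to 0.54). The ferritin light chain gene Ftl1 had a ratio of 4.51, with 4749 of 5312 UMIs in fibroblast-marker cells, and a log2 ratio of 0.60 without them.

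The same rule was applied to untreated cells as background. Of the 37 control cells at or above the members' cutoff, 34 were fibroblast-marker cells, and without such cells 3 of 2455 remained (0.122%, 0.0252 to 0.357%). The highest decile of those 2455 cells, 245 cells with a median score of 841 CPM, was set against their lowest decile with a median of 63.2 CPM. Of 3414 compared genes, 69 were at least 1.5-fold higher (2.02%) and 37 that much lower (1.08%). Of 15 p53 targets outside the rule, 7 were at least 1.5-fold higher and 1 that much lower, with a median log2 ratio of 0.49. Macrophage markers summed to 293 CPM in this highest decile and 5.35 CPM in the lowest, and their part in the comparison was not tested. Core pluripotency genes had a median of -0.013 over 13 genes, 6 above and 7 below a ratio of 1, and Pou5f1 was at -0.034 on the log2 scale. Depth, scores and numbers of cells differed between the libraries, and the difference between them was not tested.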

How the data were processed

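Single-cell RNA-seq libraries of untreated and CX-5461-treated mES cells were made by the authors with a droplet 3' kit. The deposited tables hold raw UMI counts per gene and barcode for 54146 identifiers. According to the methods, the counts came from a published pipeline (mm10 per the submitters' processing notes), and Seurat 2.3.4 was used with filters of 500 UMIs and 0.2 mitochondrial that the tables do not yet include. Barcodes are numbered anew in each table, so shared barcodes could not be counted. Symbols come from GENCODE vM21 (54079 identifiers matched).

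UMIs were summed over the cells of a decile and divided by their total (Python 3.11.15, numpy 2.4.6, scipy 1.17.1). The ratio of CPM has an exact conditional binomial interval, levels have exact Poisson and shares exact Clopper-Pearson intervals. Genes with at least 200 UMIs over both deciles were compared, and the fold was 1.5. No p-value was computed, as cells within a library do not replicate a condition. The procedure was tested on simulated cells with known folds. Members and lists were chosen with earlier results of these data known. Genes named are the rule genes, the 12 highest and 12 lowest ratios, up to 3 a direction from each list, and Trp53, Mdm4, Bax, Pou5f1, Nanog and Sox2; others are said to be chosen after their values were seen, apart from markers. No doublet caller was run, and leaving out the 5% of cells with the most UMIs was an alternative. The limit for fibroblast-marker cells and the groups of members were added after seeing the data.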

Additional observations from a re-analysis of the deposited data

How the results depend on the processing

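No paired analysis was possible because the deposited tables carry no sample of origin for a cell, so the shared sample numbers of the labels could not be used, and no sample could be left out in turn. The median log2 ratio of p53 targets outside the rule stayed above 0 in all settings run, at 0.58 against all other kept cells in place of the lowest decile, 0.71 for untreated cells and 0.49 in the control table without fibroblast-marker cells. The median of core pluripotency genes stayed between -0.62 and -0.44 in treated cells and was -0.51 in the control table and -0.013 there without fibroblast-marker cells. The median of S phase genes was -0.70 in the control table, where 53 of 251 cells of the highest decile were fibroblast-marker cells, and -0.29 without them. Genes at least 1.5-fold lower numbered 149 with deciles chosen within 10 bins of depth, 146 with the score from cells thinned to 5000 UMIs and 165 with the score without Phlda3. Against all other kept cells 1147 genes were higher and 573 lower, and with the lower fold limit the counts were 1198 and 809. With at least 50 UMIs a gene they were 1720 and 712, with at least 500 they were 273 and 117, since more or fewer genes were compared. For untreated cells 339 were higher, and without fibroblast-marker cells 69 were higher and 37 lower. The log2 ratio of summed ribosomal proteins, -0.026 as reported, moved beyond its narrow interval in many settings: 0.050 with the authors' filter, -0.034 within bins of depth, -0.021 with the thinned score, -0.020 with the highest and lowest 20% of cells, -0.032 without Ccng1, -0.029 without Trp53inp1, -0.015 against all other kept cells, -0.045 after centring, -0.021 as the mean over cells, -0.017 without fibroblast-marker cells, 0.0065 in the control table and 0.047 there without fibroblast-marker cells. Lefty2 reversed with the score without Mdm2 (0.013), Acta2 against all other kept cells (0.34) and Rpl29 without fibroblast-marker cells (-0.037). Other named genes changed direction too. Direction was kept by 148 of 153 named genes with the score without Mdm2 and 150 of 153 without fibroblast-marker cells. It was kept by 153 of 156 within bins of depth, 155 of 158 with the authors' filter and all 158 after centring. The cause of these changes was not tested; fibroblast-marker cells held 489 of 962 Rpl29 UMIs in the members and 749 of 755 Acta2 UMIs in the lowest decile. With 1 library a condition, no value has a replicate, and low-count genes such as Itgb2 rest on few UMIs in the lowest decile.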
